A study of Mus musculus with 31 samples.

Results

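Adipokines are the hormones and secreted proteins of fat cells, and 5 of their genes were followed here across brown and white fat depots in the cold: Adipoq (adiponectin), Lep (leptin), Retn (resistin), Cfd (adipsin) and Rbp4 (retinol binding protein). Each gene was taken as the row of the count tables whose RefSeq transcript accession maps to its symbol and that has counts. All 5 have such a row among 17334 accessions, but that of Rbp4 held 1 read in 1 library of 31, so levels and tests are given for 4 genes. RNA was sequenced from male C57BL/6J mice aged 8 weeks. After 8 days of acclimation at thermoneutrality, the cold groups spent 2 or 4 days at 4 °C, and the day 0 group was killed with no time in the cold. Interscapular brown fat (iBAT) had 3, 4 and 3 libraries at days 0, 2 and 4, inguinal white fat (iWAT) had 4, 3 and 5, and epididymal white fat (eWAT) had 3, 3 and 3. The labels name no transgene or deletion, and none says that the libraries of a group came from separate animals, so p-values measure the spread between these libraries, which may be technical in part.

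Adiponectin circulates as trimers and larger multimers and raises insulin sensitivity through its receptors in liver and muscle. Leptin reports the size of fat stores to the brain, where it limits food intake, and its gene is known to be expressed more by large white adipocytes than by brown ones. Resistin, which in mice is made by fat cells, opposes insulin action, and adipsin is the serine protease complement factor D, which cleaves factor B to start the alternative complement pathway. Retinol binding protein carries vitamin A in blood.

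The genes lie on different chromosomes, and no annotated gene overlaps any of them. The 250 bases before the start of each gene are shown because the proximal promoter is where the general initiation motifs and C/EBP factors, activators of fat cell genes, are known to bind. They were copied from RefSeq on build GRCm38.p6, all on the plus strand, with motif matches on either strand in capitals. The motifs were TATAA for the TATA box, a second general promoter box spelled CCAAT, and TTGCNNAA as the C/EBP type.
Adipoq, chr16:23146286-23146535: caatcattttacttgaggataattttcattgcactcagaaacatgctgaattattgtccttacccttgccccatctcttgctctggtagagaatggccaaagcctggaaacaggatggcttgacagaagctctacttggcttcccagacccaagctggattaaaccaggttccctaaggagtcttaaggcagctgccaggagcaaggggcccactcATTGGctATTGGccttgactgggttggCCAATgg
Lep, chr6:29059971-29060220: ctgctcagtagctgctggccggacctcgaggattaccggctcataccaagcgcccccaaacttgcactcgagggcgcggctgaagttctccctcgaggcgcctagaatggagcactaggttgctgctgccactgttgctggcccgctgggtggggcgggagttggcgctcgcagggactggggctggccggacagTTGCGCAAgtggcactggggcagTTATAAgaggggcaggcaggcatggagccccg
Retn, chr8:3655520-3655769: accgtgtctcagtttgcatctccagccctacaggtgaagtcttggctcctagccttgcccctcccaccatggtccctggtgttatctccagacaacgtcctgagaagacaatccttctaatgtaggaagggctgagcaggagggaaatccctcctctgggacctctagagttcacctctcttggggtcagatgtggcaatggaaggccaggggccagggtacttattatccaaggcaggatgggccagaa
Cfd, chr10:79890603-79890852: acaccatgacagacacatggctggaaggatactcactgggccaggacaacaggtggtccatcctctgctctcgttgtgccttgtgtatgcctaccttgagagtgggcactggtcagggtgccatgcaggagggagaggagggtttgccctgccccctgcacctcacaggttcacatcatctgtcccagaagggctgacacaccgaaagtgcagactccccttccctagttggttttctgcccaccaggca
Lep held a C/EBP match at 1 place, read on both strands, 55 bases before the start, and overlapping TATA matches from 32 bases before it. Adipoq held 3 CCAAT matches, at 34, 27 and 7 bases before the start. The windows of Retn and Cfd held none of the 3 motifs. Of 32851 RefSeq promoter windows of the same length, 22.8% held TATAA, 33.8% CCAAT and 9.6% TTGCNNAA. GC content was 48.8% for Adipoq, 65.6% for Lep, 54.8% for Retn and 57.6% for Cfd, against a median of 52.4% over all windows. A GC box (GGGCGG, in 32.7% of all windows) matched 1 time in Lep, 98 bases before the start, and in none of the other 3 genes. The nuclear receptor motif AGGTCA (14.0% of windows) and the cAMP response motif TGACG (17.8%), both searched on both strands, matched in none of the 4. Rbp4 is named only.

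Total counts per library ranged from 1577168 to 3756389 in iBAT, 1502823 to 5527239 in iWAT and 3193060 to 4033224 in eWAT. The tables hold no 0, so missing values were taken as counts of 0. Libraries iBAT548 and iBAT539 list far fewer low counts than the others, and a value missing there is not shown to be 0. Lep and Retn had no value in iBAT548, a day 4 library. Fat cell genes were present in all depots, and their summed level over 17 genes was 27920 to 56190 CPM (counts scaled to a common library total) in iBAT, 22510 to 77300 CPM in iWAT and 29370 to 102800 CPM in eWAT. Of these 17, Pnpla2 had no counts in iBAT or iWAT and 3 reads in all eWAT libraries. Pparg had 1 read in all iBAT libraries and none in iWAT or eWAT. Neither row is a measure of its gene in any depot. Brown adipocyte markers summed to 9379 to 38020 CPM in iBAT, 291.5 to 10560 CPM in iWAT and 35.89 to 433.1 CPM in eWAT. Other tissues were present too. All 17 skeletal muscle markers had counts in iBAT and summed to 3870 to 57790 CPM there, against 23.95 to 3478 CPM in iWAT and 35.89 to 1430 CPM in eWAT. The 12 lymphocyte markers measured reached 873 to 4273 CPM in iWAT, against 0 to 26.1 CPM in iBAT and 11.47 to 51.56 CPM in eWAT, where Lck had no counts. Epididymis and testis markers, 11 in all, reached 157.8 to 39050 CPM in eWAT, against 0 to 6.276 CPM in iBAT and 1.248 to 6103 CPM in iWAT, and 7 mesothelium markers reached 137.0 to 1238 CPM in eWAT, against 0 to 4.967 CPM in iBAT and 0.5498 to 105.2 CPM in iWAT. The part of these other tissues in the depot differences below was not tested.

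The 4 genes spanned a wide range of abundance. Per kilobase of transcript, Adipoq had a median level of 1639 CPM per kb in iBAT, 982.4 in iWAT and 3499 in eWAT. Cfd followed, with 210 CPM per kb in iBAT, 727.2 in iWAT and 1152 in eWAT. Lep and Retn were far lower: Lep had medians of 4.74, 14.04 and 54.07 CPM per kb in iBAT, iWAT and eWAT, and Retn 5.729, 19.26 and 30.54. Among all features of a library, Adipoq had a median rank of 99.5 in iBAT, 97.5 in iWAT and 11 in eWAT, where rank 1 is the highest CPM. Lep rested on 9 to 57 reads in an iBAT library with a value, against 15 to 360 in iWAT and 229 to 987 in eWAT. Retn rested on 5 to 36 reads in iBAT, 13 to 164 in iWAT and 66 to 325 in eWAT, so counting error is largest for both genes in brown fat.

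**Figure D1:**
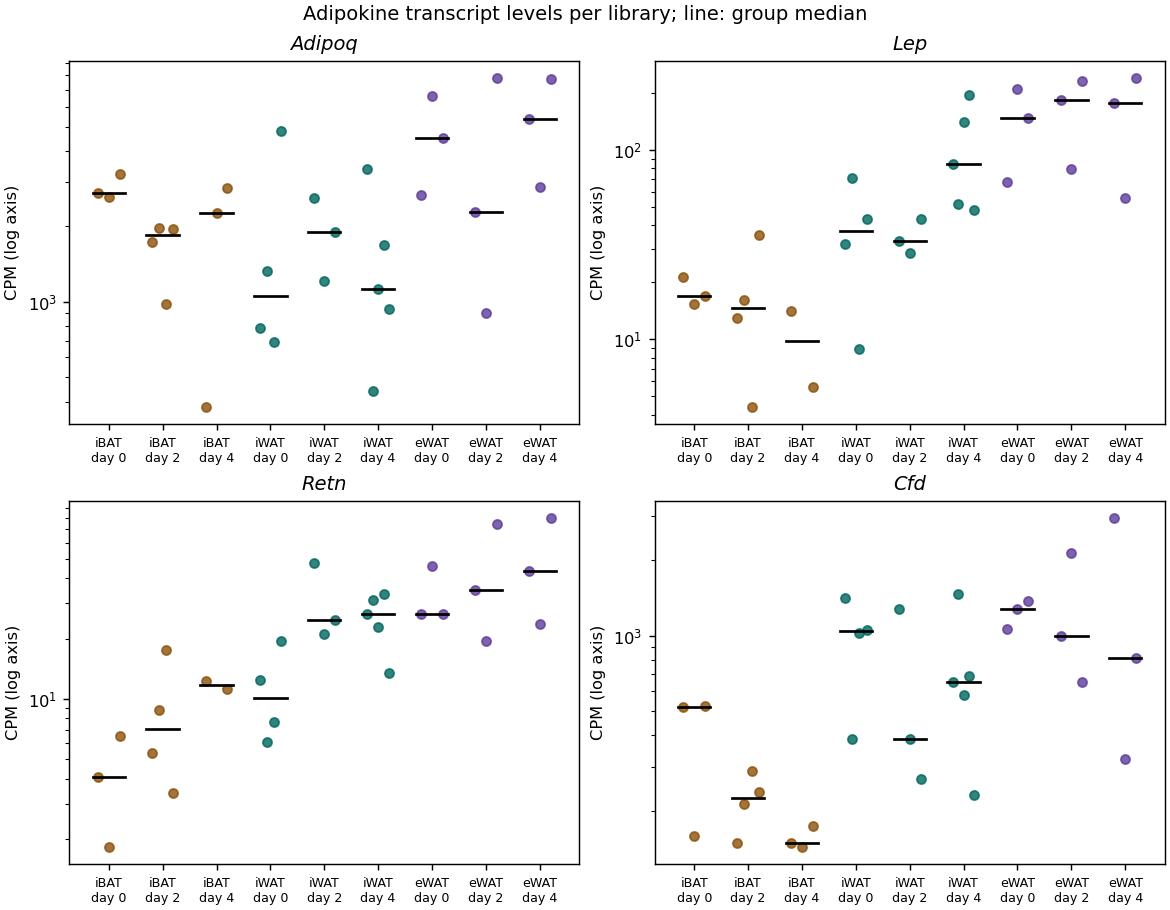
Levels of the 4 adipokine genes in CPM, on a log axis, with 1 point per library and a line at the group median, for iBAT, iWAT and eWAT at days 0, 2 and 4. Lep, Retn and Cfd sit lower in every iBAT group than in the eWAT group of the same day, while Adipoq overlaps between depots on days 0 and 2. Lep and Retn have no point for iBAT548 at day 4.

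Leptin, resistin and adipsin transcripts were all lower in brown fat than in both white depots averaged over the 3 days, while adiponectin was not separated between brown and inguinal fat. Lep differed by -3.63 on the log2 scale (SE 0.51) in iBAT against eWAT, and by -2.07 (SE 0.47) in iBAT against iWAT. These differences between depot means over days 0, 2 and 4 were added after the values were seen. They come from edgeR's quasi-likelihood test in 1 fit of all 31 libraries, as do all depot comparisons here, with p-values adjusted by Benjamini-Hochberg over 11041 genes and a threshold of 0.05. Against eWAT, all 4 genes passed in the direction of lower in iBAT, where 41.5% of all genes tested passed in either direction. Against iWAT, 3 of 4 passed, all lower in iBAT, where 39% of all genes passed. In iWAT against eWAT, 2 of 4 passed, both lower in iWAT, where 28.4% of all genes passed. With shares this high over all genes, passing is common, and the direction and size are what these comparisons add. In bulk tissue, fewer cells of a type and less RNA per cell cannot be told apart.

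Averaged over the 3 days, leptin showed the widest gap. Against iWAT on days 0 and 2, its gap was smaller than those of Retn and Cfd. Lep had 21.21, 15.45 and 16.91 CPM in iBAT at day 0, then 13.03, 16.1, 4.373 and 35.35 CPM at day 2, and 14.09 and 5.604 CPM in the 2 libraries with a value at day 4. In iWAT it had 31.79, 71.37, 8.902 and 43.12 CPM at day 0, then 33.17, 28.46 and 43.17 CPM at day 2, and 84.55, 52.07, 139.7, 195.9 and 48.28 CPM at day 4. In eWAT it had 68.06, 210.3 and 146.8 CPM at day 0, then 183.5, 79.71 and 229.8 CPM at day 2, and 176.2, 55.81 and 240.9 CPM at day 4. All iBAT libraries with a value were below all eWAT libraries, whatever the day. The iBAT and iWAT groups overlapped at days 0 and 2 and not at day 4. The share of all genes whose groups do not overlap was not computed. A lack of overlap, here and below, therefore describes a member and does not set it apart from other genes. Over all days, Lep passed below eWAT in iBAT (adjusted p = 2.85e-06) and in iWAT (-1.57, SE 0.44, adjusted p = 0.00824), and below iWAT in iBAT (adjusted p = 0.000903). The call in iWAT against eWAT was lost with library sizes set by fat cell genes (-0.83, SE 0.43, adjusted p = 0.14). Without iBAT548, which has no value for Lep, the difference in iBAT against iWAT was -1.80, beside -1.63 for Cfd and -1.41 for Retn.

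By day, Lep passed in iBAT against eWAT on all 3 days, at -2.99 (SE 0.88, adjusted p = 0.0277) on day 0, -3.26 (SE 0.80, adjusted p = 0.00578) on day 2 and -4.65 (SE 0.97, adjusted p = 0.00166) on day 4. Over all genes 10.3%, 17.8% and 18.1% passed on these days. The day 0 call was lost when any of the libraries iBAT516, iBAT517, iBAT518 or eWAT517 was left out, with differences of -3.13, -2.89, -2.95 and -2.59, and with library sizes set by fat cell genes (-2.09, adjusted p = 0.133). The day 4 call was lost in a fit of the compared groups (-4.60, adjusted p = 0.0739). Without iBAT548, which has no value for Lep and entered the fit as 0, the day 4 difference was -3.95 and passed (adjusted p = 0.00617). Against iWAT, Lep passed on day 4 alone, at -4.04 (SE 0.91, adjusted p = 0.00278), with -1.13 (SE 0.79, adjusted p = 0.332) on day 0 and -1.03 (SE 0.77, adjusted p = 0.411) on day 2, where 17.6%, 17.9% and 15.6% of all genes passed on days 4, 0 and 2. Without iBAT548 the day 4 value was -3.31 (adjusted p = 0.0128). In iWAT against eWAT no member passed on any day, against 7.82%, 10.2% and 9.94% of all genes on days 0, 2 and 4. Lep there was -2.23 on day 2 (SE 0.84, adjusted p = 0.0916), when the groups did not overlap, and passed with DESeq2 (adjusted p = 0.0331), the score (0.041) and only the compared groups (0.0217). It was -0.60 on day 4 (SE 0.71, adjusted p = 0.654), when they did.

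**Figure D2:**
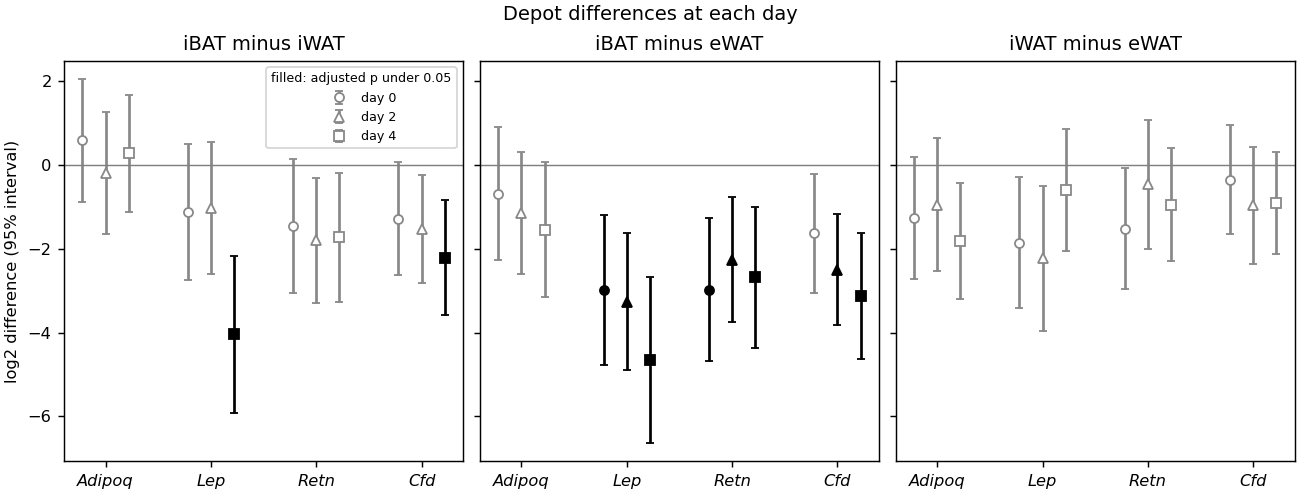
Log2 differences between depots with 95% intervals for the 4 genes at days 0, 2 and 4, with the first-named depot minus the second. Filled symbols passed an adjusted p of 0.05 over all genes: Lep and Retn in iBAT minus eWAT on all days, Cfd there on days 2 and 4, and Lep and Cfd in iBAT minus iWAT on day 4.

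Resistin followed the same order of depots as leptin, with smaller differences averaged over the 3 days. On days 0 and 2 the difference between iBAT and iWAT was larger for Retn than for Lep. Retn had 4.078, 1.817 and 6.526 CPM in iBAT at day 0, then 5.365, 8.827, 17.49 and 3.399 CPM at day 2, and 12.25 and 11.21 CPM in the 2 day 4 libraries with a value. In iWAT it had 12.38, 6.09, 7.715 and 19.49 CPM at day 0, then 47.72, 21.14 and 24.87 CPM at day 2, and 26.51, 31.15, 22.73, 33.28 and 13.41 CPM at day 4. In eWAT it had 26.42, 46.24 and 26.42 CPM at day 0, then 34.78, 19.41 and 74.63 CPM at day 2, and 43.31, 23.64 and 80.12 CPM at day 4. The highest iBAT library, at 17.49 CPM, was below the lowest eWAT library, at 19.41 CPM. Over all days Retn differed by -2.64 (SE 0.46, adjusted p = 4.68e-05) in iBAT against eWAT and by -1.67 (SE 0.43, adjusted p = 0.00321) in iBAT against iWAT. In iWAT against eWAT it was -0.98 (SE 0.41, adjusted p = 0.0742, 95% interval -1.82 to -0.14) and did not pass, but it passed in 5 of 10 alternatives, at an adjusted p of 0.0184 to 0.0427, with values of -1.05 to -0.97. By day it passed in iBAT against eWAT, at -2.98 (SE 0.83, adjusted p = 0.0204), -2.26 (SE 0.73, adjusted p = 0.0312) and -2.69 (SE 0.82, adjusted p = 0.0238) on days 0, 2 and 4. In iBAT against iWAT Retn was -1.46, -1.80 and -1.73 on days 0, 2 and 4 (SE 0.77, 0.73 and 0.75) and did not pass, with no overlap on days 2 and 4 among libraries with a value. On day 4 it passed unscaled (adjusted p = 0.0323), with DESeq2 (0.0392), with voom (-3.24, adjusted p = 0.0166) and with the library score (0.021), and on day 2 unscaled (0.0207), with fat cell scaling (-2.65, adjusted p = 0.0171), with DESeq2 (0.0326) and in a fit of the compared groups (0.0424). The daily calls against eWAT were all lost with library sizes set by fat cell genes (adjusted p = 0.0792, 0.0748 and 0.0822 on days 0, 2 and 4), on day 2 with voom (0.0615) and on day 4 in a fit of the compared groups (0.236). They also rest on single libraries: day 0 was lost without iBAT516 (-2.97), iBAT517 (-2.62) or eWAT517 (-2.66), day 2 without iBAT532 (-2.09), iBAT534 (-2.26), iBAT539 (-2.00), eWAT532 (-2.39) or eWAT539 (-1.59), and day 4 without iBAT548 (-2.00) or eWAT553 (-2.14).

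Adipsin was likewise lowest in brown fat. Cfd had 516.3, 158.7 and 521.5 CPM in iBAT at day 0, then 148.7, 213.4, 287.1 and 236.6 CPM at day 2, and 148.7, 142.7 and 173.7 CPM at day 4. In iWAT it had 1416, 384.9, 1024 and 1053 CPM at day 0, then 1277, 385.4 and 268.4 CPM at day 2, and 650.2, 1464, 576.6, 690.7 and 231.5 CPM at day 4. In eWAT it had 1062, 1279 and 1370 CPM at day 0, then 992.9, 2134 and 649.8 CPM at day 2, and 2953, 322.9 and 816.2 CPM at day 4. Within each day iBAT lay below eWAT with no overlap, and iBAT lay below iWAT with no overlap on day 4. Over all days the differences were -2.43 (SE 0.40, adjusted p = 2.45e-05) in iBAT against eWAT, -1.68 (SE 0.38, adjusted p = 0.000771) in iBAT against iWAT, and -0.75 (SE 0.37, adjusted p = 0.135; 95% interval -1.5 to 0.01) in iWAT against eWAT. By day Cfd passed in iBAT against eWAT on day 2, at -2.51 (SE 0.65, adjusted p = 0.00804), and day 4, at -3.14 (SE 0.74, adjusted p = 0.00427), but not on day 0 (-1.63, SE 0.69, adjusted p = 0.143). The day 4 value was -1.87 without eWAT548 and the day 2 value -1.89 without eWAT538, and both calls were lost, the day 4 call also in a fit of the compared groups (-3.10, adjusted p = 0.0646). In iBAT against iWAT it passed on day 4, at -2.22 (SE 0.67, adjusted p = 0.0216), a call lost without iBAT548 (-2.10), iBAT550 (-2.10), iBAT555 (-2.25) or iWAT550 (-1.79), and with fat cell scaling (-1.74). On days 0 and 2 Cfd was -1.28 (SE 0.66, adjusted p = 0.176) and -1.54 (SE 0.63, adjusted p = 0.101) there and did not pass. The day 2 value passed unscaled (adjusted p = 0.0224), with fat cell scaling (-2.33, adjusted p = 0.00901) and with the library score (0.0496). With the label number as a block, the day 2 call against eWAT was lost (adjusted p = 0.164), as was the day 4 call against iWAT (0.063).

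Adiponectin behaved differently. Adipoq had 2714, 2619 and 3231 CPM in iBAT at day 0, then 1728, 1978, 976.5 and 1952 CPM at day 2, and 379.1, 2257 and 2837 CPM at day 4. In iWAT it had 785.1, 1330, 690.8 and 4813 CPM at day 0, then 2595, 1208 and 1902 CPM at day 2, and 3372, 439.6, 1125, 1691 and 932 CPM at day 4. In eWAT it had 2655, 6613 and 4520 CPM at day 0, then 2290, 900.4 and 7840 CPM at day 2, and 5352, 2882 and 7756 CPM at day 4. Single libraries stand far from their group, among them iBAT548 at 379.1 CPM, iWAT522 at 4813 CPM and eWAT538 at 900.4 CPM, and the depots overlap except for iBAT against eWAT on day 4. On no single day did Adipoq pass between depots, although it came to -1.82 (SE 0.67, adjusted p = 0.0858) in iWAT against eWAT on day 4, and passed there without iWAT548 (-2.35). On day 0 it was -1.27 (SE 0.71, adjusted p = 0.314) and passed without iWAT522 (-2.30). Its difference over all days was 0.22 in iBAT against iWAT (SE 0.41, adjusted p = 0.711), with a 95% interval of -0.62 to 1.05. That sign turned to -0.20 with library sizes left unscaled. Against eWAT it was -1.13 in iBAT (SE 0.44, adjusted p = 0.0395) and -1.35 in iWAT (SE 0.42, adjusted p = 0.0154). The call in iBAT was lost when 1 library was left out in 11 of 19 cases, with differences from -1.16 to -0.72 in those 11, the smallest of them without eWAT539. The call in iWAT was lost without eWAT539 (-0.94). With library sizes set by the summed fat cell genes, the differences were -0.63 and -0.69 and neither passed, and the call in iBAT was also lost with voom (adjusted p = 0.0612).

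Set against adiponectin in the same library, a ratio that library scaling does not touch, the other 3 genes also had their lowest medians in brown fat. Per kilobase, Lep was a median of 0.247% of Adipoq in iBAT (0.0783% to 0.718%), 1.3% in iWAT (0.355% to 4.92%) and 1.26% in eWAT (0.768% to 3.51%). All 9 iBAT libraries with a value were below all 9 eWAT libraries. Retn was 0.352% of Adipoq in iBAT (0.0787% to 2.03%), 1.71% in iWAT (0.459% to 8.04%) and 1.08% in eWAT (0.663% to 2.45%). Cfd was 16% of Adipoq in iBAT (8.49% to 55%), 51% in iWAT (19.8% to 467%) and 42.5% in eWAT (11.6% to 332%). For Retn and Cfd the ranges overlapped between depots, and no test was made of these ratios.

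**Figure D3:**
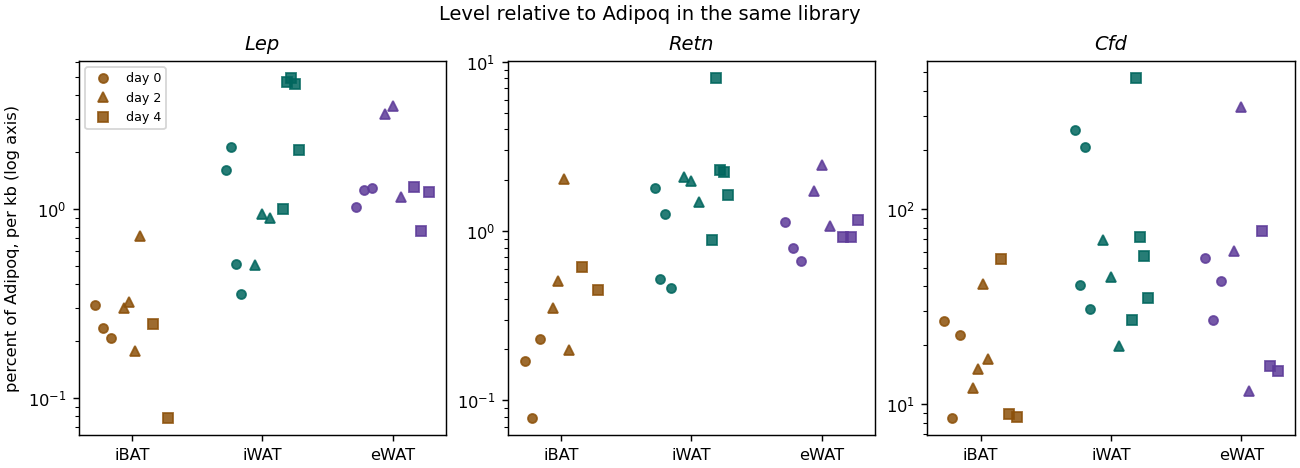
Level of Lep, Retn and Cfd as a percent of Adipoq in the same library, both per kilobase, on a log axis, with 1 point per library by depot and day. For Lep the iBAT points end at 0.718% and the eWAT points start at 0.768%, while the ranges of Retn and Cfd overlap.

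The cold was asked next: did 2 or 4 days at 4 °C move these transcripts within a depot? None of the 4 genes passed the test in any depot at either day. In iBAT at day 2, 0.157% of all genes passed, 13 of 8270. In the other 5 comparisons with day 0, over 8270 genes for iBAT, 9574 for iWAT and 10043 for eWAT, the share was 0%, so a lack of calls among the adipokines does not set them apart from other genes. At an unadjusted p under 0.05 edgeR gave 1022 and 581 genes in iBAT at days 2 and 4. It gave 1020 and 793 in iWAT, and 106 and 277 in eWAT. With DESeq2 as the tool, 306, 83, 111, 43, 0 and 4 genes passed in those comparisons, none of them an adipokine. Of 24 such values of the 4 genes, 4 had an unadjusted p under 0.05, by the same edgeR test. The 95% intervals were wide, and a change of several fold was within most of them. Where groups are said below not to overlap, the share of all genes without overlap was not computed, so no support is drawn from it.

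In brown fat the lowest unadjusted p was that of Cfd at day 4, at -1.26 (SE 0.46, 95% interval -2.26 to -0.26, unadjusted p = 0.0181, adjusted p = 0.573). The 3 day 4 libraries, at 142.7 to 173.7 CPM, overlapped with the lowest day 0 library, at 158.7 CPM. Lep was -1.45 at day 4 (SE 1.04, interval -3.73 to 0.83, adjusted p = 0.847), and -0.83 without iBAT548, the library with no value. Its 2 other day 4 libraries, at 5.604 and 14.09 CPM, lay below all 3 day 0 libraries. Adipoq was -0.69 at day 2 (SE 0.52, interval -1.84 to 0.45, adjusted p = 0.613), when all 4 libraries, at 976.5 to 1978 CPM, lay below all 3 day 0 libraries, at 2619 to 3231 CPM. This value was -0.14 with the library score in the fit and -1.38 with fat cell scaling. The score, described below, rests on deviations from the depot mean, so adjusting for it can remove part of a day difference. In iBAT it was -0.99, 0.11 and -0.69 at day 0, and -0.87, -0.03, 1.41 and 1.34 at day 2. At day 4 Adipoq was -0.60 (SE 0.57, adjusted p = 0.875). Retn was 1.16 at day 2 (SE 1.06) and 0.92 at day 4 (SE 1.11), with adjusted p of 0.675 and 0.908. Skeletal muscle markers moved in the same libraries, at 6798 to 10870 CPM at day 2 and 3870 to 22060 CPM at day 4, against 18080 to 57790 CPM at day 0, and their part in these values was not tested.

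In inguinal fat, Retn and Lep had the other 3 unadjusted p-values under 0.05. Retn was 1.41 at day 2 (SE 0.48, interval 0.39 to 2.43, unadjusted p = 0.00992, adjusted p = 0.37) and 1.14 at day 4 (SE 0.43, interval 0.21 to 2.07, adjusted p = 0.518). All 3 day 2 libraries, at 21.14 to 47.72 CPM, were above all 4 day 0 libraries, at 6.09 to 19.49 CPM. Lep was 1.42 at day 4 (SE 0.55, interval 0.24 to 2.60, adjusted p = 0.543) with overlapping groups, and -0.18 at day 2 (SE 0.61, adjusted p = 0.921). Cfd was -0.62 and -0.42 at days 2 and 4 (SE 0.66 and 0.57). Adipoq was -0.35 at day 4 (SE 0.65, adjusted p = 0.938) and turned to 0.71 when iWAT522, the day 0 library at 4813 CPM, was left out. Fat cell genes summed to 31020 to 35110 CPM at day 2 and 22510 to 77300 CPM at day 4 in iWAT, against 33250 to 50620 CPM at day 0. With library sizes set by these genes, Lep at day 4 was 0.87 and Retn 0.66. The brown adipocyte markers summed to 5065 to 9902 CPM at day 2 and 1200 to 10560 CPM at day 4 in iWAT, against 291.5 to 1912 CPM at day 0, and their part in these values was not tested.

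In epididymal fat the changes were small against their error. The log2 differences from day 0 of the 4 genes ran from -0.29 (Adipoq, day 2, SE 0.76) to 0.56 (Retn, day 4, SE 0.59), and the groups overlapped for every gene at both days. Over 364 values of the 4 genes from alternative scalings, filters, tools, covariates and fits with a library left out in all depots, 0 passed, and the smallest adjusted p was 0.0882.

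**Figure D4:**
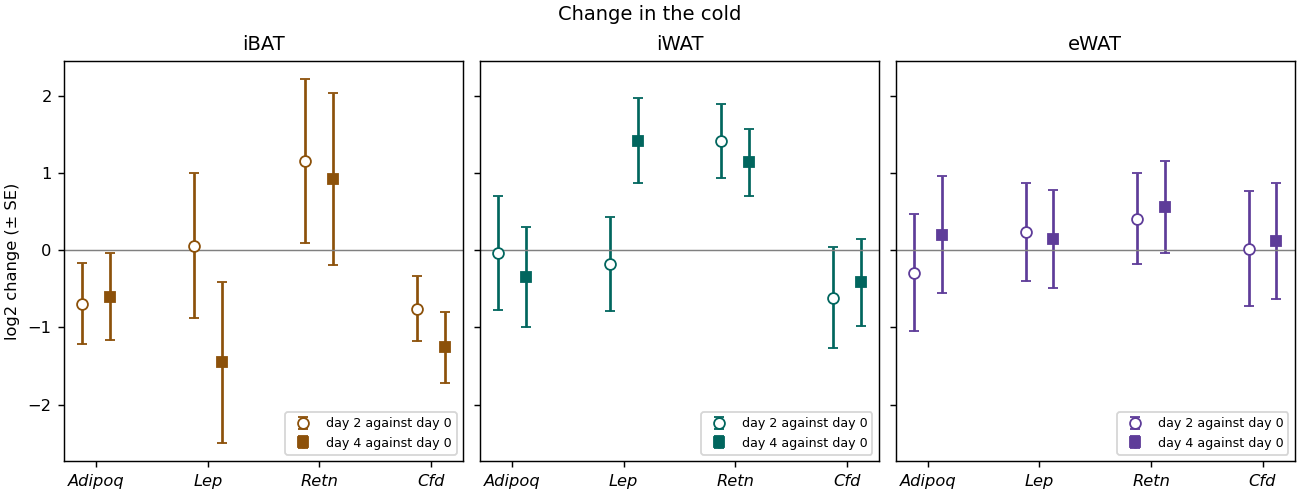
Log2 change from day 0 with its SE for the 4 genes in iBAT, iWAT and eWAT, with day 2 as open circles and day 4 as filled squares. Retn in iWAT lies at 1.41 and 1.14 and Cfd in iBAT at -0.76 and -1.26, and no change passed an adjusted p of 0.05.

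Whether the change in the cold differed between depots was tested as an interaction in the fit of all libraries. Of 24 values, 0 passed, against 0% of all genes in each of the 6 comparisons, and 1 had an unadjusted p under 0.05 by the same edgeR test, as did 445 to 1153 genes of 11041. This was Lep at day 4, whose change in iBAT less that in iWAT was -2.92 (SE 1.12, interval -5.21 to -0.62, unadjusted p = 0.0148, adjusted p = 0.712), and -2.19 without iBAT548. A p that misses the threshold does not show that the depots responded alike.

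Each depot had its own main axis of spread between libraries of the same group. That of iBAT held 50.2% of the depot's within-group variance, that of iWAT 39.6% and that of eWAT 40.3%. Each library was scored on a different axis, the one found in the other depots, with the adipokines left out of it. The shares above do not apply to the axis used for the score, whose share in the scored depot is not given. Adipoq fell by 0.73 on the log2 scale per SD of this score (SE 0.14, adjusted p = 8.85e-05), a slope chosen after the data were seen, while Lep (-0.21), Retn (-0.42) and Cfd (0.20) did not pass, with adjusted p of 0.503, 0.0836 and 0.388. Of all genes, 31.5% passed for the slope, and what the score stands for was not tested. With the score in the fit, Adipoq passed between iWAT and eWAT on day 0 (-1.52), day 2 (-1.69) and day 4 (-1.43), and between iBAT and eWAT on day 4 (-1.63).

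**Figure D5:**
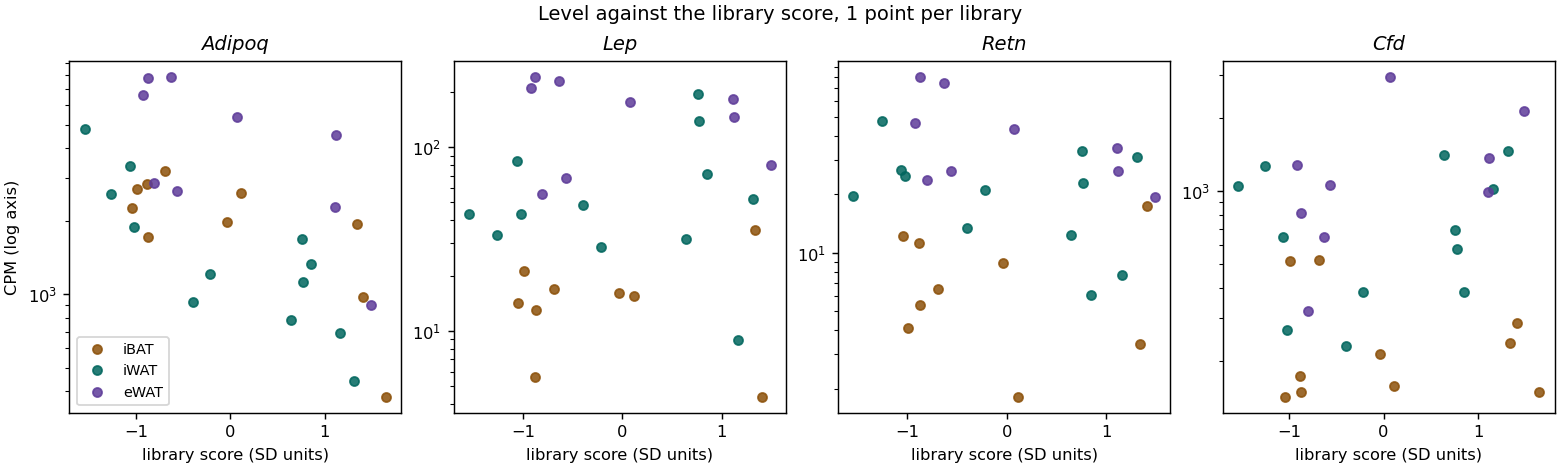
Level in CPM, on a log axis, against the library score in SD units for the 4 genes, with 1 point per library and colour by depot. Adipoq is lower in libraries of high score, with a slope of -0.73 on the log2 scale per SD, and the other 3 slopes did not pass.

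The biological coefficient of variation of the 4 genes, their spread between replicates beyond counting, was 0.637 for Adipoq, 0.658 for Lep, 0.6 for Retn and 0.571 for Cfd, close to the common value of 0.587. The genes varied together to unequal degrees. Across the 31 libraries, which share depots and scaling, the Pearson correlation of log2 CPM was 0.79 between Lep and Retn and 0.53 after group means were removed. Adipoq and Lep correlated at 0.54, and at 0.70 within groups, while Adipoq and Cfd correlated at 0.19 and -0.08. Lep and Retn, with no value in iBAT548, were taken as 0 there in these correlations and in those below. Correlations without that library were not computed. Among 11041 genes, those most like Adipoq over the libraries were Serpinf1 (0.891), the gene of the secreted serpin PEDF, Cpd (0.888) and Rin2 (0.879). Those most like Lep were Adcy5, an adenylyl cyclase (0.88), Dram1 (0.858) and Igfbp4, a binding protein of insulin-like growth factors (0.852). Igfbp4 also led for Retn (0.908), ahead of Cdr2 (0.882) and Alcam (0.865). For Cfd they were the sodium channel gene Scn7a (0.827), the ceramide synthase gene Cers4 (0.824) and Fgf10, a growth factor gene (0.821).

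Genes that act with the adipokines were described from lists of their receptors, partners and regulators. Their counts below stand beside 39%, 41.5% and 28.4% of all genes passing in iBAT against iWAT, iBAT against eWAT and iWAT against eWAT, and nothing particular to a list is read from them. At day 2 and day 4, 0 genes of these 6 lists passed against day 0 in any depot. Between depots over all days, receptors and their adaptors had 11 genes tested. In iBAT against iWAT 3 passed as higher and 5 as lower, with a median log2 difference of -0.52 against -0.22 over all genes, and in iBAT against eWAT 0 passed as higher and 5 as lower. The leptin receptor gene Lepr, with 4 reads in all iBAT libraries, 295 in iWAT and 78 in eWAT, was lower in iBAT, by -4.89 against iWAT (SE 0.62, adjusted p = 4.19e-07) and -3.24 against eWAT (SE 0.64, adjusted p = 0.000219). The phosphatase gene Ptpn1, whose product limits leptin and insulin signalling, was also lower, by -1.53 (SE 0.23, adjusted p = 5.93e-06) and -0.70 (SE 0.24, adjusted p = 0.019). C3ar1, the receptor of complement fragment C3a, was higher in iBAT, by 1.86 against iWAT (SE 0.35, adjusted p = 0.000102).

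Of the alternative complement pathway, where adipsin acts, 8 genes were tested. In iBAT against iWAT 1 passed as higher and 5 as lower (median -1.25), and in iBAT against eWAT 0 passed as higher and 6 as lower (median -1.43, against -0.31 over all genes). The surface inhibitor Cd55 was lower in iBAT, by -2.74 against iWAT (SE 0.28, adjusted p = 1.04e-08) and -1.48 against eWAT (SE 0.28, adjusted p = 0.000114). Clu, which blocks the terminal pathway, was lower by -3.39 (SE 0.48, adjusted p = 2.81e-06) and -4.30 (SE 0.52, adjusted p = 2.5e-07). Its reads were 2246 in iBAT, 41903 in iWAT and 100368 in eWAT. The summed level of the list in eWAT at day 4 had a median of 2067 CPM but reached 17680 CPM in 1 library. The part of that library, and of the epididymis tissue in eWAT, was not tested. Cfi, the protease that inactivates C3b, is 1 of the genes counted as lower: it had no counts in iBAT, against 47 in iWAT and 164 in eWAT, so its size is not given, and both medians are the same with Cfi set to 3 counts over the iBAT libraries. Since Pnpla2 also had no counts there, a missing accession is not shown to be low expression.

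Retinoid transport and metabolism, the setting of Rbp4, had 14 genes tested, of which 3 passed as higher and 7 as lower in iBAT against eWAT (median -1.82), and 3 as higher and 4 as lower in iBAT against iWAT (median -0.78). The retinaldehyde dehydrogenase genes Aldh1a3 and Aldh1a2 were lower in iBAT than in eWAT, by -4.71 (SE 0.49) and -4.59 (SE 0.54). Retsat, a retinol saturase, was higher in iBAT, by 1.64 against iWAT (SE 0.29, adjusted p = 5.26e-05).

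Other secreted factors of fat cells went both ways. Of 27 tested, 7 passed as higher and 2 as lower in iBAT against iWAT, 4 as higher and 10 as lower in iBAT against eWAT, and 2 as higher and 13 as lower in iWAT against eWAT. Bmp8b, a thermogenic signal of brown fat, was higher in iBAT, by 5.28 against iWAT (SE 0.55), with 258 reads in iBAT, 8 in iWAT and 1 in eWAT. Retnla, a relative of resistin, was lower than in eWAT by -4.18 (SE 0.57) in iBAT and by -4.08 (SE 0.53) in iWAT. Lcn2, lipocalin 2, had 1 read in iBAT and 29 in iWAT, against 961 in eWAT. Agt, angiotensinogen, was lower in iWAT than in eWAT by -4.60 (SE 0.66). Of 8 genes of adiponectin assembly and secretion tested, 3 passed as higher and 1 as lower in iBAT against iWAT, and 2 as higher and 1 as lower in iBAT against eWAT. In this list the disulfide isomerase gene Pdia4 was lower in iBAT by -1.05 (SE 0.23) and -1.73 (SE 0.24). Of 12 transcription factors known to regulate adipokine genes, 4 passed as higher and 0 as lower in iBAT against iWAT, and 2 as higher and 0 as lower in iBAT against eWAT. Cebpb, a C/EBP factor, was higher by 2.31 (SE 0.48, adjusted p = 0.000382) and 2.91 (SE 0.54, adjusted p = 0.000101).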

How the data were processed

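RNA-seq was run on 31 libraries in 9 groups of depot and day. The authors deposited 1 table per depot, with a row per RefSeq transcript accession; its values, whole numbers with differing totals, were read as raw counts. Cutadapt, BWA and build mm10 are listed in the submitters' processing notes, while versions, the counting step and strand use are not given in the sources used here. Library names join depot and label number. Counts are of 1 accession per gene, so the Rbp4 row, with 1 read, is no measure of that gene. The annotation holds 2 Rbp4 accessions, and only this 1 has a row with counts. No label mentions molecular identifiers, so reads may include PCR copies. Without strand, reads of overlapping genes could not be separated, though no annotated gene overlaps the members.

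The tests used edgeR 4.0.16 under R 4.3.3, with TMM scaling and two-sided, robust quasi-likelihood F-tests after a filter on low counts (filterByExpr, minimum count 10, minimum total 15). P-values were adjusted by Benjamini-Hochberg within each comparison at a threshold of 0.05. Days were compared in 1 fit per depot, and depots and interactions in 1 fit of all libraries. That fit took the libraries as independent, although label numbers recur across depots and may mark the same animals. CPM use TMM-scaled totals over all 31 libraries, marker sums use plain totals, and correlations use a prior count of 2. Intervals are 95%. The fits were run on simulated data with less spread than these libraries and larger changes than those seen in the cold. That run does not show how well changes of the size seen in the cold would be found. Alternatives were other scalings, no filter, DESeq2 1.42.0, limma 3.58.1 voom, the library score, fits on the compared groups, label number as a block, and libraries left out. Depot differences over all days and the score slope were added after the values were seen. The members and lists were chosen with earlier results of these data known. Genes named are the 5 members, the 3 genes most correlated with each, and from each list up to 3 of the smallest p past the threshold. 1 further gene that this rule names is not reported here. Listed entries with 0 or 1 read in a depot are given by reads.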

Additional observations from a re-analysis of the deposited data

Results flagged for a closer look

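Adipoq in iWAT522, a day 0 library, had 4813 CPM, far from the next of its 4-library group at 1330 CPM: this gap was 0.845 of the group's range. It was the only such case among 12 examined, 4 genes in each of the 3 groups of 4 or 5 libraries. For normally distributed values chance gives such a gap in about 1 in 20 groups. The rule was applied to CPM and not to log values, so the flag may depend on that scale. The library score of iWAT522, -1.54, was the lowest of the iWAT libraries, and the part of the score in this value was not tested.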

How the results depend on the processing

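RLE size factors and no filter changed the sign or call of none of 73 values of single genes. Over all days, Lep, Retn and Cfd kept their calls in iBAT against iWAT and against eWAT in all 11 alternatives and in every fit with a library left out, with Lep at -4.13 to -3.09 against eWAT and -2.58 to -1.87 against iWAT in the alternatives. Depth limits Lep and Retn in iBAT most, at a median of 31 and 17 reads. Summing all rows of a gene changes nothing, since each has 1 row with counts. Library sizes left unscaled moved the median of all genes in iBAT against eWAT over all days to -0.76, and scaling to fat cell genes moved it to 0.05, against -0.31. The causes of the changes below were not tested.

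Counts of members passing, of 4, changed as follows. The share of all genes passing moved with the setting too, so a changed count is not read as particular to the adipokines. In iBAT against eWAT over all days this share was 54.2% unscaled and 30.1% with fat cell scaling, against 41.5%. In iBAT against eWAT on day 0 (2 passing) 0 passed with fat cell scaling, where 7.64% of all genes passed, against 10.3%. On day 4 (3 passing) 0 passed in a fit of the compared groups, in which 7.5% of all genes passed, against 18.1%. In iBAT against iWAT on day 2 (0 passing) 2 passed unscaled and with fat cell scaling. With DESeq2, with the score and with only the compared groups, 1 passed. The shares of all genes in these fits were 19.2%, 13.1%, 20.9%, 17.2% and 19%, in that order, against 15.6%. On day 4 (2 passing) 1 passed with fat cell scaling and without iBAT539 and iBAT548, where 12.8% and 13.1% of all genes passed, against 17.6%. In iWAT against eWAT (0 passing) 1 passed with the score on days 0 and 4 and 2 on day 2, 1 with DESeq2 on days 2 and 4, and 1 with the compared groups on day 2. Of all genes, 12.2%, 13.9% and 11.6% passed with the score on days 0, 2 and 4, against 7.82%, 10.2% and 9.94%. With DESeq2 15.1% and 13.7% passed on days 2 and 4, and with the compared groups 11% on day 2. In iWAT against eWAT over all days 0 members passed with fat cell scaling, against 2, where 30.9% of all genes passed, against 28.4%. All other changes were of 1 member. In iBAT against eWAT they were 3 unscaled on day 0; 2 on day 2 with fat cell scaling, voom and block with score; 2 on day 4 with fat cell scaling, the block and without iBAT539 and iBAT548, and 4 with the score; and 3 over all days with fat cell scaling, voom, the block and without those 2 libraries. In iBAT against iWAT on day 4, 3 passed unscaled, with DESeq2, voom, the score, and block with score; over all days in iWAT against eWAT, 3 passed unscaled, with DESeq2, the score, the compared groups, and block with score. With a library left out, counts ran from 0 to 2 and 0 to 1 in iBAT and in iWAT against eWAT on day 0, 2 to 3 in iBAT against eWAT on days 2 and 4 and 3 to 4 over all days, 1 to 2 and 0 to 1 in iBAT against iWAT and iWAT against eWAT on day 4, and 1 to 3 in iWAT against eWAT over all days.

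Label numbers recur across depots within a day, and the labels do not say whether a number marks 1 animal. Of 23 same-numbered pairs, 6 correlated above 0.1 in their deviations from the group means (median -0.0753). Groups of 3 to 5 libraries are too small for this to exclude pairing. The main fits took the libraries as independent, and the label number as a block is given as an alternative. With the label number as a replicate block, members passing were 1 in iBAT against eWAT on day 0, 0 on day 2, and 1 in iBAT against iWAT on day 4, where 8.5%, 4.72% and 12% of all genes passed in that fit, against 10.3%, 17.8% and 17.6% without the block. With block and score, Adipoq in iBAT against iWAT on day 2 was 0.45.

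Signs turned only for values that did not pass. Without library scaling Lep at day 2 in iBAT was -0.20, Cfd in eWAT -0.11 and -0.03 at days 2 and 4, Lep at day 4 in eWAT -0.02, and Adipoq in iBAT against iWAT -0.19 on day 4 and -0.20 over all days. With fat cell scaling Lep was -0.72 at day 2 in iBAT, Adipoq 0.29 and Lep 0.07 at day 2 in iWAT, and Cfd -0.23 at day 2 in eWAT; between depots Adipoq was 0.13 in iBAT against eWAT on day 0, Cfd 0.34 in iWAT against eWAT on day 0, and Adipoq 0.10, Retn 0.57 and Cfd 0.09 in iWAT against eWAT on day 2. With voom, Lep at day 2 and Retn at day 4 in iBAT were -0.44 and -0.68, Adipoq and Lep at day 2 in iWAT 0.40 and 0.08, and Cfd in eWAT -0.13 and -0.45 at days 2 and 4. With the score, Cfd at day 2 and Adipoq at day 4 in eWAT were -0.70 and -0.12, and Adipoq in iBAT against iWAT 0.89 on day 2 and -0.20 on day 4. Without iBAT539 and iBAT548, Lep at day 2 in iBAT was -0.64.

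With 1 library left out, values that crossed 0 ran as follows. At day 2, Lep in iBAT ran from -0.64 to 0.40, Adipoq and Lep in iWAT from -0.35 to 1.01 and -0.50 to 0.26, and Adipoq, Lep, Retn and Cfd in eWAT from -1.52 to 0.17, -0.12 to 0.61, -0.28 to 0.76 and -0.57 to 0.32. At day 4, Adipoq in iWAT ran from -0.89 to 0.71, and Adipoq, Lep and Cfd in eWAT from -0.18 to 0.53, -0.31 to 0.55 and -1.14 to 0.59. Between depots, Adipoq ran from -0.45 to 0.14 and -0.10 to 0.85 in iBAT against iWAT on days 2 and 4, -1.61 to 0.06 in iBAT against eWAT on day 2 and -1.41 to 0.27 in iWAT against eWAT on day 2, Retn from -0.93 to 0.22 there, and Cfd from -1.39 to 0.35 in iWAT against eWAT on day 4.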
